A study of Caenorhabditis elegans with 2 samples.

Results

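The regions around microRNA genes described here came from chromatin immunoprecipitation and sequencing (ChIP-seq) of tagged PAT-9 in Caenorhabditis elegans embryos. A region was a member if its summit, the position of strongest enrichment, lay within 1000 bp of a gene annotated as microRNA and farther than 200 bp from every gene for rRNA, tRNA, snRNA or snoRNA. Of the 30000 regions called on the pooled reads, 214 met the first condition, 5 of these lay near another small RNA gene, and 209 were members. The members lay at 208 distinct pairs of coordinates, since 1 interval was listed with 2 summits, and they merged into 173 separate intervals. Neither condition used a measured value of enrichment.

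The samples are 2 biological replicates of 1 group, with nothing to compare them against. Both were chromatin of whole late embryos, with an age label of 3 hours, obtained by egg bleaching from strain RW12085 with both sexes pooled, and fragmented by sonication. The strain carries a CRISPR insertion at pat-9 on the X chromosome. Its strain label gives mNG with 3xFlag as the insert, elsewhere the labels speak of a fusion to eGFP or of GFP-FLAG at the C terminus, and the antibody was raised against GFP. These statements on the tag cannot all hold, and mNG (mNeonGreen) is not a derivative of GFP. PAT-9 is a zinc finger transcription factor required for body wall muscle, a tissue that makes up only some of the cells of a whole embryo. The control library named in the labels was not analysed here.

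MicroRNAs are short RNAs cut from a hairpin in a longer primary transcript and loaded onto Argonaute proteins, where the seed near the 5′ end pairs with target messages. Genes with the same seed form families whose members often act redundantly. In C. elegans the mir-35 and mir-51 families are needed for embryonic development, the mir-58 family is abundant and related to bantam of flies, let-7 and lin-4 time larval development, mir-1 acts in muscle, and lsy-6 acts in a taste neuron. The annotated gene is in most cases about the hairpin, so its 5′ end is not the start of transcription, but some span more, such as let-7 with 1732 bp, mir-8199 with 778 bp and mir-8209 with 262 bp. Positions are counted from the annotated gene.

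The sequences that carry the main result are those of the mir-51 family, because 5 of its 6 genes lay near a peak, together with seeds of other genes that the results compare with it. Of the 5, mir-54, mir-55 and mir-56 lay near the same peak. Of all 261 annotated microRNA genes 6.13% lay near a reproducible peak. Mature sequences are from the RefSeq annotation of WBcel235 (the same assembly as ce11), 5′ to 3′, with the seed, bases 2 to 8, in capitals. All 6 genes of the mir-51 family shared the seed ACCCGUA, on the 5′ arm of the hairpin in mir-51, mir-52 and mir-53 and on the 3′ arm in mir-54, mir-55 and mir-56.
mir-51: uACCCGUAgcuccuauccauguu
mir-52: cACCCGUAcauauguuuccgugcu
mir-53: cACCCGUAcauuuguuuccgugcu
mir-54: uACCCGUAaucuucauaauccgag
mir-55: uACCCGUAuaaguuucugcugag
mir-56: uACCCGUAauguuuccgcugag
The seed GAUAUGU was shared by 3 genes, mir-50, mir-62 and mir-90, of which mir-62 and mir-90 lay near a peak.
mir-90: uGAUAUGUuguuugaaugccccu
mir-62: uGAUAUGUaaucuagcuuacag
In the mir-58 family, mir-80, mir-81 and mir-82 shared the seed GAGAUCA, and mir-58.1 had the seed GAGAUCG.
mir-80: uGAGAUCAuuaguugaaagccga
mir-81: uGAGAUCAucgugaaagcuagu
mir-82: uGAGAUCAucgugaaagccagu
mir-58.1: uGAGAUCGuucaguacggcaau
For comparison, all 8 genes of the mir-35 family shared the seed CACCGGG and none lay near a reproducible peak.
mir-35: uCACCGGGuggaaacuagcagu

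The genomic sequence under the strongest summits follows, as the summit base with 50 bp on either side, on the plus strand of ce11, with matches to the motifs GAGAGA (the GA repeat), CANNTG (the E-box that MyoD-type factors bind) and GTTCGA (part of the internal promoter of tRNA genes) in capitals, on either strand. They are shown because these are the intervals with the highest signal around genes of the mir-51 family, around mir-90 and around mir-80. The windows are chrIV:11026155-11026255 for mir-51, chrIV:14033931-14034031 for mir-52, chrX:13145114-13145214 for mir-54, chrIII:8874304-8874404 for mir-90 and chrIII:8865485-8865585 for mir-80.
mir-51: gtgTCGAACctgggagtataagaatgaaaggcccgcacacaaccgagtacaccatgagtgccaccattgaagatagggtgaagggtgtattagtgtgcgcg
mir-52: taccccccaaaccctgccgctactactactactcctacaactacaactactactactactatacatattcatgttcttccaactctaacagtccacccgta
mir-54: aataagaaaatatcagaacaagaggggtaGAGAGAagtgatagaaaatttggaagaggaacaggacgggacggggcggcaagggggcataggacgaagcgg
mir-90: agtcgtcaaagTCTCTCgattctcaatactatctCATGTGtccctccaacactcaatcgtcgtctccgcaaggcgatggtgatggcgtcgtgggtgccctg
mir-80: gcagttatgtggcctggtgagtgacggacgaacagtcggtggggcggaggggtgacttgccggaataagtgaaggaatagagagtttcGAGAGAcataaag
The mir-52 window reached into the hairpin gene, which starts at 14034008, and ended inside the mature sequence printed above, which starts at 14034024.

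The authors' list of reproducible (optimal) peaks was used to count strong members. Of the 209 members 13 (6.22%, Wilson 95% interval 3.67% to 10.3%) were optimal peaks, compared with 2.45% of all 30000 pooled regions. Among the 29341 pooled regions that were not near another small RNA gene, which is the population the members were taken from, 1.68% were optimal peaks. Every pooled region with a signal of 101.3 or above was in the optimal list and no weaker one was, so that being in this list is a statement on signal in the pooled reads. The intervals cover counting error only, and no test over samples exists with 1 group. Regions are not replicates of a condition, and neighbouring members can share an enriched interval.

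The median signal of the members was 37.8 (quartiles 30.0 and 55.7), and that of all pooled regions was 34.1 (quartiles 28.2 and 44.2). Signal is the authors' own value per region and is compared here only within a list. The difference from the pooled regions was present at every depth of the ranking that was examined. The strongest 1000 pooled regions held 9.09% of the members and 2.51% of the pooled regions not near small RNA genes. The strongest 5000 held 29.2% and 15.6%, and the strongest 15000 held 60.3% and 49.3%. Many members are thus weak: 196 were not optimal peaks, and the pooled list was deposited before the selection of reproducible peaks. Its 30000 regions end at a signal of 23.9. A gene said below to have no region had none in this list, and weaker signal there is not known.

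**Figure D1:**
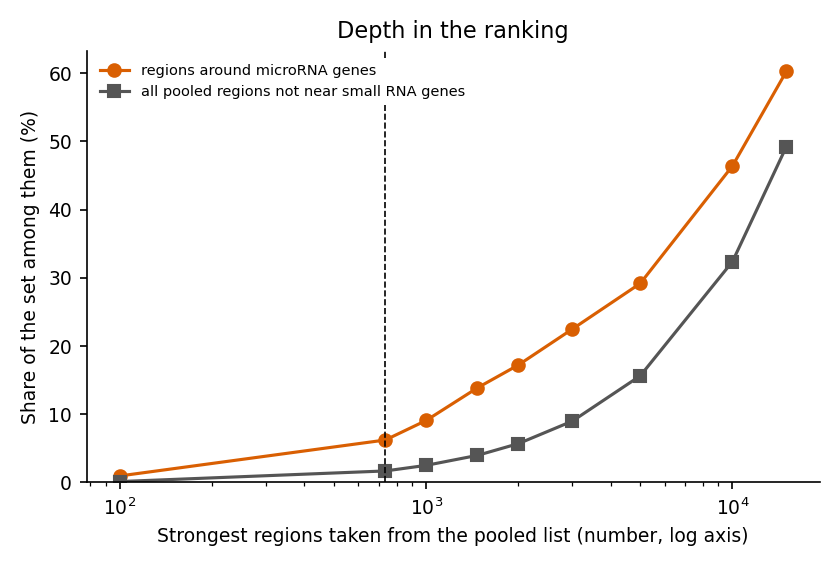
Share of the 209 regions around microRNA genes (orange circles) and of the 29341 pooled regions not near small RNA genes (grey squares), in percent, found among the strongest regions of the pooled list, whose number is on a log axis. The dashed line marks the number of optimal peaks, at which the shares are 6.22% and 1.68%.

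The strongest members were at 2 genes of the mir-51 family. The region at mir-51, chrIV:11025911-11026398, had a signal of 493 and rank 11 of all pooled regions. Replicate 1 gave it a signal of 177 and rank 15, and replicate 2 a signal of 314 and rank 10. Its summit lay 93 bp upstream of the hairpin, outside any protein-coding promoter window and inside the annotated noncoding RNA gene F36H1.17. Signal scales differ between lists, so ranks are the values to compare, and by rank both replicates placed this region among their strongest. A replicate's value is that of the strongest of its regions that overlap the pooled one by at least 1 bp.

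The region at mir-52, chrIV:14033755-14034222, had a signal of 399 and rank 29. Its signal was 132 in replicate 1 (rank 50) and 270 in replicate 2 (rank 22). Its summit lay 27 bp upstream of the hairpin, inside another annotated noncoding RNA gene. The same interval was listed again with a second summit, 172 bp downstream of the hairpin's 5′ end, with a signal of 123 and rank 474. Counting the interval once leaves 12 of 208 members in the optimal list (5.77%). Both mir-51 and mir-52 are intergenic in the sense that no protein-coding gene overlaps them, and both had high ranks in both replicates.

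The third enriched locus of the family is the cluster of mir-54, mir-55 and mir-56, which lies in an intron of F09A5.3 on the opposite strand. The region chrX:13144949-13145378 had a signal of 164 and rank 278. Its signal was 83.1 in replicate 1 (rank 161) and 82.8 in replicate 2 (rank 433). The summit lay 70 bp upstream of mir-54, the first hairpin of the cluster in the direction of transcription, 240 bp upstream of mir-55 and 377 bp upstream of mir-56. F09A5.15, an annotated microRNA gene that overlaps mir-55 on the other strand, lay within 1000 bp of the same summit, so that 4 genes share this 1 peak. A second region beyond mir-56, 844 bp from the 5′ end of mir-54, had a signal of 82.6 (rank 1170) and ranked 1669 and 1227 in replicates 1 and 2, outside the optimal list.

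The remaining gene of the family, mir-53, is clustered with mir-51 but had its own, weaker region. Its summit lay 42 bp inside the hairpin, with a signal of 78.4 (rank 1345), and its rank was 5879 in replicate 1 and 910 in replicate 2. In all, 8 regions had a gene of this family as the nearest microRNA gene, of which 4 were optimal peaks and whose median signal was 103. Without these 8 regions, 9 of the remaining members (4.48%, interval 2.37% to 8.29%) were optimal peaks, an interval that holds the 2.45% of all pooled regions and lies above 1.68%.

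**Figure D2:**
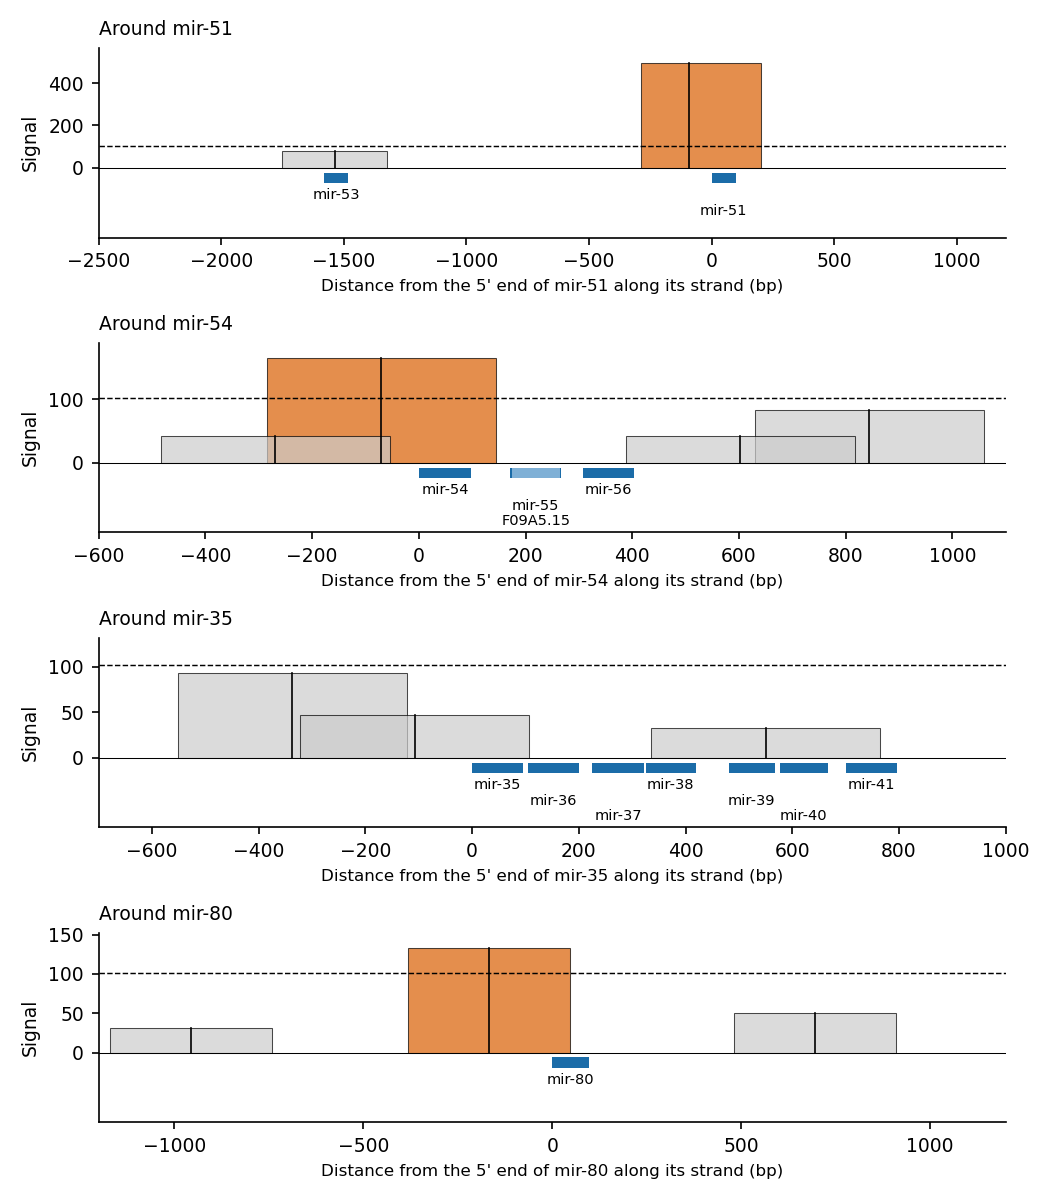
Signal of pooled regions (bars, height on a linear axis, width to scale, vertical line at the summit) around mir-51, mir-54, mir-35 and mir-80, by distance in bp from each gene's 5′ end along its strand. Orange bars are optimal peaks, grey bars are not, dark blue boxes are microRNA genes on the strand of the named gene, the light blue box is on the other strand, and the dashed line is the lowest signal in the optimal list (101.3). The strongest bar lies just upstream of mir-51 (493), mir-54 (164) and mir-80 (133), while the strongest bar at mir-35 (92.7) stays under the line.

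Outside this family, mir-90 had the strongest region. It lies in an intron of K01F9.2 on the host's strand, and the region chrIII:8874139-8874568 had a signal of 169 and rank 261. Its signal was 44.8 in replicate 1 (rank 679) and 119 in replicate 2 (rank 212). The summit was 270 bp upstream of the hairpin and outside any protein-coding promoter window. The other gene with this seed and a peak, mir-62, is a mirtron, a microRNA hairpin released by splicing, in an intron of ugt-50. Its region had a signal of 102 (rank 724), ranked 372 in replicate 1 and 936 in replicate 2, and lay 417 bp upstream of the hairpin, inside the promoter window of ugt-50. The third gene, mir-50, had a region but no optimal peak.

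The gene mir-80, of the mir-58 family, is intergenic and lies near mir-90 on chromosome III. Its region chrIII:8865320-8865749 had a signal of 133 and rank 394, with a summit 168 bp upstream of the hairpin. Its signal was 52 in replicate 1 (rank 466) and 80.4 in replicate 2 (rank 462). At mir-51, mir-52, mir-54, mir-80 and mir-90 the strongest summit was upstream, between 27 and 270 bp from the hairpin. All 5 regions were strong in both replicates, at rank 679 or better. Of all 13 members in the optimal list 9 had their summit upstream and 4 downstream, while 49.3% of all members were upstream. The peak assigned to mir-354, stronger than that at mir-80, lay 860 bp upstream.

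The other members in the optimal list were weaker or less even between replicates. At mir-67, in an intron of the metalloprotease gene zmp-1, the signal was 118 (rank 524), with rank 2456 in replicate 1 and 478 in replicate 2. The summit lay 12 bp after the first base of a transcript of another gene, EGAP1.5, whose promoter window held it. At mir-86, in an intron of Y56A3A.7, the signal was 112 (rank 597), with ranks of 756 and 376, and the summit lay 701 bp from the 5′ end on the downstream side, also within reach of mir-8211. At mir-1824 the signal was 109 (rank 624), with ranks of 4480 and 449. At mir-8187, in an intron of ech-7, the signal was 106 (rank 652), with ranks of 299 and 3208. At mir-4929, in an intron of E01G4.3, the signal was 102 (rank 725), with ranks of 350 and 1344. Thus mir-67 and mir-1824 were strong mainly in replicate 2, and mir-8187 and mir-4929 mainly in replicate 1.

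The peak assigned to mir-354 lay farthest from its hairpin. Its signal was 164 (rank 282), with rank 1148 in replicate 1 and 181 in replicate 2, and it was 118 bp wide, the narrowest member. Its summit lay 860 bp upstream of mir-354, within the promoter windows of both ekl-4 and rps-20. The gene rps-20 encodes a small ribosomal subunit protein and has an exon that overlaps the annotated mir-354 gene. The windows of protein-coding genes also held the summits at mir-67, mir-1824, mir-62 and mir-4929. At these 5 genes the lists cannot tell a region of the microRNA gene from one of the protein-coding gene. A like limit holds at mir-51 and mir-52, whose strongest summits lay inside other annotated noncoding RNA genes. Such genes also lay 49 bp from the peak summit at mir-54, 169 bp from that at mir-80 and 276 bp from that at mir-90.

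**Figure D3:**
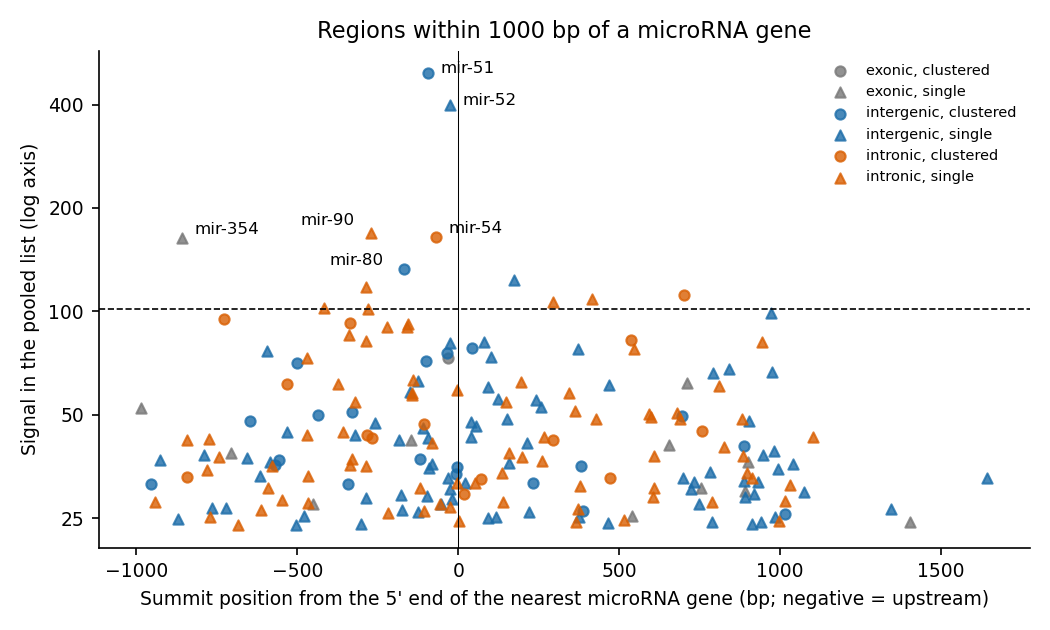
Signal in the pooled list (log axis) of the 209 members against the summit's position in bp from the 5′ end of the nearest microRNA gene, negative upstream. Colours give the class of the gene, circles are clustered and triangles single genes, and the dashed line is the lowest signal in the optimal list (101.3). The 2 highest points, mir-51 and mir-52, lie within 100 bp upstream of the hairpin.

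By position, 103 members had their summit upstream of the annotated microRNA gene, 14 inside it and 92 downstream. Inside does not always mean in the hairpin, since genes such as let-7, mir-8199 and mir-8209 are annotated as longer. Optimal peaks were 9 of the 103 upstream (8.74%), 0 of the 14 inside and 4 of the 92 downstream (4.35%), and the first and last of these have overlapping intervals (4.67% to 15.8% and 1.70% to 10.7%). With 0 of 14, a share of up to 21.5% is within the interval. By distance, 5 of 72 members within 200 bp were optimal peaks (6.94%), 6 of 52 farther away up to 500 bp (11.5%) and 2 of 85 beyond that (2.35%). The members just inside the limit were at mir-8195 (986 bp, signal 52.3) and mir-4931 (998 bp, signal 43.1), and the regions just outside were at mir-233 (1010 bp, signal 29.5) and mir-87 (1018 bp, signal 35.4).

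A promoter window here covers 1000 bp before and 500 bp after the first base of a protein-coding transcript. Of the 75 members in such a window 5 (6.67%, interval 2.88% to 14.7%) were optimal peaks, compared with 2.93% of the non-members in these windows. Of the 134 members outside them 8 (5.97%, interval 3.06% to 11.3%) were optimal peaks, compared with 0.896% of the non-members outside. The interval for members outside the windows lies above the share of the non-members there, while that for members inside the windows includes it, and the 2 differences were not tested against each other.

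Intronic microRNA genes had 95 members, of which 8 (8.42%, interval 4.33% to 15.7%) were optimal peaks, with a median signal of 42.2. Of the members at intergenic genes 4 (3.96%, interval 1.55% to 9.74%) were optimal peaks, and their median signal was 36.05. Genes overlapping an exon had 13 members and 1 optimal peak, that of mir-354. The intronic and intergenic intervals overlap. The intergenic peaks were the strong ones at mir-51, mir-52 and mir-80, all outside protein-coding promoter windows, and 0 of the 31 intergenic members inside such windows were optimal peaks. Of the intronic members 6 of 69 were optimal peaks where the host gene is on the same strand (8.70%) and 2 of 26 where it is on the opposite strand (7.69%).

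Counted by gene, 140 of the 261 annotated microRNA genes had a member region (53.6%) and 16 had an optimal peak (6.13%). Of the 97 intronic genes 11 had an optimal peak (11.3%, interval 6.45% to 19.2%), and of the 152 intergenic genes 3 (1.97%, interval 0.673% to 5.64%). Genes and peaks do not count alike: 4 intronic genes share the peak at mir-54, mir-8211 shares that of mir-86, and mir-52 has 2 summits. Genes that share a peak are not independent.

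Genes on the same strand were joined into a cluster when within 5000 bp of each other, which gave 24 clusters with 69 genes. Of these clusters 14 had a member region and 4 had an optimal peak, those of mir-51 and mir-53, of mir-54 to mir-56, of mir-80 and mir-238, and of mir-86 and mir-8211. Clustered genes had 38 members, of which 4 (10.5%, interval 4.17% to 24.1%) were optimal peaks, and single genes had 171, of which 9 (5.26%, interval 2.79% to 9.70%) were. The intervals overlap. The largest cluster, of 11 genes on the X chromosome from mir-4807 to mir-4921, had a strongest member of only 37.0 (rank 12291).

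The mir-35 family, whose transcripts are abundant in early embryos, had a region at all 8 genes and an optimal peak at none. Of all 261 microRNA genes 53.6% had a member region and 6.13% an optimal peak, and no family was tested against these shares. The cluster of mir-35 to mir-41 lies in an intron of Y62F5A.9 on the opposite strand. Its strongest region, 337 bp upstream of mir-35, had a signal of 92.7 (rank 894), with a signal of 31.6 in replicate 1 (rank 2520) and 60.6 in replicate 2 (rank 904). It was the strongest region for mir-35 to mir-40. For mir-41 the strongest was a region of 47.2 (rank 6122), which overlaps the same replicate regions. The separate gene mir-42 had a region 35 bp upstream with a signal of 75.5 (rank 1493), ranked 4774 and 1817 in the replicates.

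In the mir-58 family, 4 of the 8 genes matched had a region, and mir-80 was the only one of them with an optimal peak. The shares over all microRNA genes were 53.6% and 6.13%. The strongest region of mir-58.1 had a signal of 90.4 (rank 948) but ranked 9217 in replicate 1 against 666 in replicate 2. At mir-82 the signal was 54.4 (rank 3922), and at mir-81 it was 28.8 (rank 21552). The genes mir-58.2, mir-2209.1, mir-2209.2 and mir-2209.3 had no member region.

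Of the let-7 family 3 of 7 genes had a region and 0 an optimal peak, beside 53.6% and 6.13% of all microRNA genes. The signal was 71.0 (rank 1738) at mir-241, 62.1 (rank 2614) within the primary transcript of let-7 and 37.2 (rank 12119) at mir-48, while mir-84, mir-793, mir-794 and mir-795 had none. At lin-4 the signal was 35.6 (rank 13571), close to the median of the pooled list, and mir-237 had no region. Around genes known from neurons, lsy-6 and mir-790 had no region, and the signal was 58.12 at mir-273, 33.9 at mir-124 and 32.2 at mir-791. At mir-71, a microRNA known for its effect on lifespan, it was 37.9 (rank 11530).

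The muscle microRNA gene mir-1 had the strongest member outside the optimal list. Its signal was 99.3 (rank 762), with 19.99 in replicate 1 (rank 12352) and 67.4 in replicate 2 (rank 690). Its summit lay 876 bp downstream of the hairpin, and it was strong in replicate 2 only. A second region of mir-1, 593 bp upstream, had a signal of 76.9 (rank 1435) and more even values, with 31.7 in replicate 1 (rank 2493) and 51.5 in replicate 2 (rank 1347). The remaining region of mir-1, inside the hairpin, had a signal of 46.3 (rank 6460). The other 9 of the 10 strongest members outside the list had signals from 81.8 to 94.8 and were, in falling order, at mir-8212, mir-35, mir-2, mir-58.1, mir-5595, mir-1830, mir-56, mir-4920 and mir-4936. Of these 9, mir-5595 differed most between replicates, ranking at 20342 in replicate 1 but at 506 in replicate 2.

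**Figure D4:**
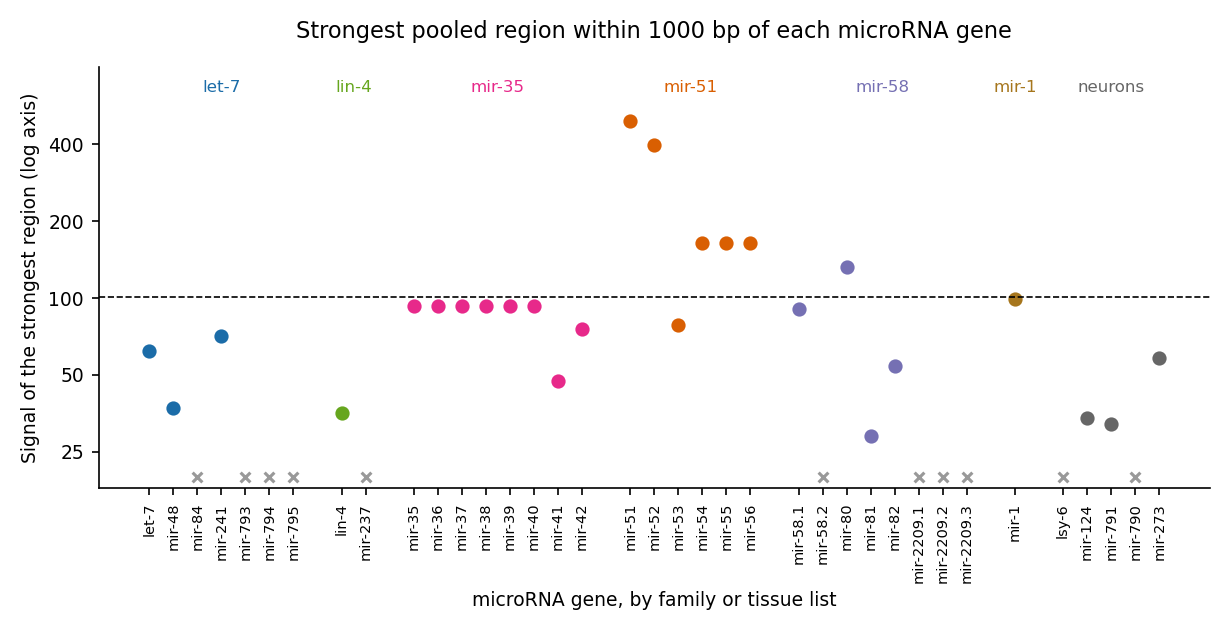
Signal (log axis) of the strongest member region of the genes of the let-7, lin-4, mir-35, mir-51 and mir-58 families, of mir-1 and of genes known from neurons, coloured by list, with grey crosses at the bottom for genes without a region. The dashed line is the lowest signal in the optimal list (101.3), and of the genes drawn 5 of the mir-51 family and mir-80 lie above it.

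The replicates ranked the members differently. Of the 13 members in the optimal list 9 were among the strongest regions of replicate 1, taken to the same number as the optimal list, 10 among those of replicate 2 and 6 among both, where the 2 summits of mir-52 count separately. Of all optimal peaks 72.1%, 85.9% and 62.4% met the same criteria. Of all members 155 overlapped a region of replicate 1, 182 one of replicate 2 and 134 both. Over these 134 members the signals had a Spearman rho of 0.437 and a Pearson r of 0.595 on the log2 scale, as a description of regions that share libraries and sometimes overlap.

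**Figure D5:**
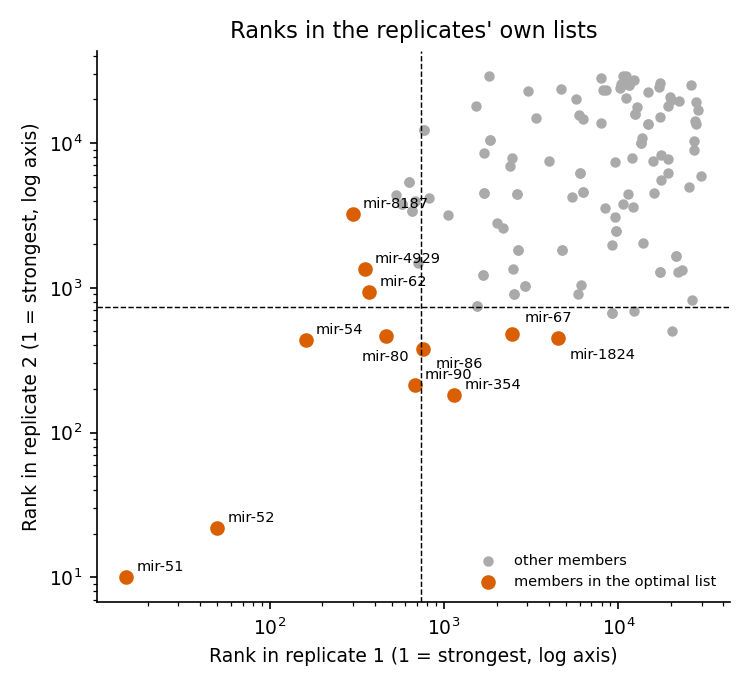
Rank of each member in replicate 1 against its rank in replicate 2 (log axes, 1 is the strongest), for the 134 members that overlap a region of both lists. Orange points are optimal peaks, grey points the other members, and dashed lines mark the rank equal to the number of optimal peaks. The points for mir-51 and mir-52 stand apart at the lower left, while mir-8187, mir-67 and mir-1824 lie far from equal ranks.

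By sequence, the 13 members in the optimal list had a GC content of 49.05% ± 6.19 (SD over regions) within 50 bp of the summit and 43.9% ± 5.39 at 200 bp to either side. The other 196 members had 44.4% ± 9.66 at the summit, and all pooled regions 41.1% ± 9.05. Among the optimal peaks not near small RNA genes it was 50.4% ± 7.37. The motif GAGAGA was in 37 of the 209 member windows (17.7%, interval 13.1% to 23.4%), compared with 9.72% of all pooled windows not near small RNA genes, and in 4 of the 13 optimal members, at mir-90, mir-54, mir-80 and mir-4929. Among optimal peaks not near small RNA genes 23.7% held it.

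The E-box CANNTG was in 68 member windows (32.5%), close to the 32.6% of pooled windows, and in 4 of the 13. GTTCGA was in 10 member windows (4.78%), against 3.35% of pooled windows, and in 1 of the 13, at mir-51, where it lies near one end of the window. CGCGCC was in 6 member windows (2.87%) against 3.40%, TATAAA in 14 (6.70%) against 7.71%, and TGACGT in 1 (0.478%) against 3.31%. None of these 3 was in a window of the 13, for which the Wilson interval reaches 22.8%. Among optimal peaks not near small RNA genes 13.4% held CGCGCC, 3.24% TATAAA and 2.83% TGACGT. Motifs were searched as letters on both strands, and a match is not a binding site.

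The protein-coding genes of the microRNA pathway were looked up by promoter window. Of all 19865 protein-coding gene names 8677 had a pooled region there, and 5.91% of these 8677 had an optimal peak. Of 20 matched genes of microRNA biogenesis and function, 17 had a region and 5 (29.4%, interval 13.3% to 53.1%) an optimal peak. The strongest was at vig-1, a component of the silencing complex, with a signal of 384 (rank 33) and ranks of 37 and 33 in the replicates. At alg-5, an Argonaute, it was 213 (rank 157), in a window shared with the histone genes his-67 and his-68. At ifet-1, a translational repressor, it was 158 (rank 298), shared with the ribosomal protein gene rps-1. At nhl-2, a cofactor of the silencing complex, it was 132 (rank 396), in a window shared with tag-340, with rank 6620 in replicate 1 and 276 in replicate 2. At ain-1, a GW182 protein, it was 110 (rank 608).

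The genes of that list with the highest signal outside the optimal list were hrpk-1 (79.7), alg-1 (73.0), alg-2 (67.1), xrn-2 (65.2), rde-4 (56.5) and cgh-1 (56.1). Ranks in replicates 1 and 2 were 13661 and 635 at hrpk-1, 7163 and 946 at alg-1, and 475 and 11003 at alg-2. The main microRNA Argonautes, alg-1 and alg-2, thus had no optimal peak in their windows, which does not show that they were unbound. The genes of the enzymes that cut the hairpin, drsh-1 and dcr-1, had no pooled region in their window. Of 20 matched heterochronic regulators and microRNA targets 16 had a region and 2 (12.5%, interval 3.50% to 36.02%) an optimal peak, nhl-2, which is in both lists, and lin-66 (signal 119, rank 510). The ones with the highest signal outside the optimal list were sup-26 (78.7), lin-42 (70.3), unc-49 (63.9), lin-28 (62.3), hbl-1 (49.9) and lin-14 (48.2). The interval of this second list holds the background share.

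Of the 5 regions left out for lying near another small RNA gene, 1 was an optimal peak. It lay 872 bp from mir-4921 and 22 bp from a tRNA gene, with a signal of 155 (rank 302). The others had signals of 63.5 at mir-1829.3, 46.7 and 33.2 at mir-5546 and 32.1 at mir-1819.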

How the data were processed

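ChIP-seq of PAT-9 in 2 replicates of late embryos was deposited as narrowPeak lists on ce11: 1 per replicate, 1 for pooled reads and the optimal list. No aligner, peak caller or version is named by the labels. Each region carries a signal value from the authors, which served to describe and rank regions inside 1 list. The deposited −log10 q values were read but did not serve for ranking. Read depth is unknown, and labels do not say whether replicates came from separate cultures.

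Ensembl release 115 (WBcel235) gave genes, and RefSeq WBcel235 gave genome and mature sequences; all 261 microRNA genes matched, and 260 had 458 mature arms. Distances ran from the summit to the gene body. The class intronic, intergenic or exonic came from overlap with protein-coding genes, whose promoter windows were counted by gene name. Shares carry Wilson 95% intervals. Members, gene lists and the rule for named genes (genes with optimal peaks, the 10 strongest others, listed families, pathway genes) were chosen with earlier results of these data known. Symbols mir-58, mir-1834, ntl-1 and lin-57 had no match. The distance step was tested on simulated data. Alternatives covered distance limits, small RNA filters, single replicates, thresholds, cluster gaps, overlap rules and windows. Tools were pandas 2.3.3, NumPy 2.4.6, SciPy 1.17.1 and matplotlib 3.10.9 under Python 3.11.15.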

Additional observations from a re-analysis of the deposited data

How the results depend on the processing

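Of 49 alternative values computed for the results above 41 were counted as close to the main value, 8 as moved and 0 as reversed. Close is a wide class here, and a count or a median by itself has no direction that could reverse. The median signal was 42.8 with the limit at 500 bp, against 37.8, and counts as moved. With the limit at 200 bp 4 genes had an optimal peak, which also counts as moved. With the limit at 2000 bp 24 genes had one, against 16, which counts as close. With only summits upstream or inside 11 genes had one, which counts as close too. With the stronger 50% of the optimal peaks the share of members was 2.39% (8 genes). Its interval, 1.03% to 5.48%, includes the 1.22% of all pooled regions, so that no difference from them is clear there. The share among pooled regions not near small RNA genes was not computed at that threshold. With double the number of peaks the share of members was 13.9% (34 genes). It stood beside 4.90% of all pooled regions and 3.97% of those not near small RNA genes. In the list of a single replicate the median signal ranged from 20.2 to 24.2 on that list's own scale, while the share among its strongest regions, as many as there are optimal peaks, ranged from 6.25% to 7.85%. Alternatives chosen after seeing the data left the share at 4.48% (without the mir-51 family), 5.77% (each interval once) and 5.97% (outside protein-coding promoter windows). No paired analysis was possible because there is 1 group. Precision is limited by 2 replicates and unknown depth, and the 13 peaks leave wide intervals for every subgroup.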

Other observations

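By chromosome, microRNA genes differed in how often they had a member region. On the X chromosome 27 of 74 genes had one (36.5%), on chromosome V 11 of 28 (39.3%), on chromosome III 20 of 27 (74.1%) and on chromosome II 35 of 49 (71.4%). The pooled regions not near small RNA genes were also spread unevenly. There were 4443 on X (17718942 bp) and 5049 on V (20924180 bp), beside 5167 on III (13783801 bp) and 4960 on II (15279421 bp). Regions of any kind were thus denser on III and II. Whether the gene shares differ from this spread was not tested. On X 2 of 33 members were optimal peaks (6.06%), beside 2.54% of the pooled regions of X not near small RNA genes, and the peak at mir-54 accounts for 4 of the 5 X-linked genes with one. On V 0 of 14 members were optimal peaks, for which the Wilson interval reaches 21.5%, beside 1.39% of the pooled regions of V not near small RNA genes.

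In a list of 30 other conserved microRNA genes, 20 had a member region and 2, mir-67 and mir-86, an optimal peak. Of all 261 microRNA genes 140 (53.6%) had a member region and 16 (6.13%) an optimal peak. Among the 46 seeds shared by several genes, ACCCGUA with 5 genes and GAUAUGU with 2 were the only ones with more than 1 gene near an optimal peak. Of the 5 genes with ACCCGUA, mir-54, mir-55 and mir-56 share 1 peak. These counts are values of this peak list and were not tested.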
